A study of Mus musculus with 6 samples.

Results

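The genes described here are 10 transcription factors that set the balance between memory-like and effector CD8 T cells: Id3, Id2, Eomes, Tbx21, Zeb1, Zeb2, Bcl6, Prdm1, Myb and Bhlhe40. Their UTX binding sites were all the sites that the authors' deposited table assigns to these symbols, 3 of 6739 sites in all. Id3 had 2 sites, Zeb1 had 1, and the other 8 genes had no listed site. UTX, encoded by Kdm6a, is a demethylase of histone H3 lysine 27, and its binding was profiled by CUT&Tag, in which an antibody guides a transposase to cut and tag the DNA near the bound protein. The cells were Ly108-positive, CXCR6-negative progenitor CD8 T cells sorted from pancreatic lymph nodes. The groups were 3 samples from NY8.3 mice with a T cell-specific loss of UTX (UTXTCD.NY8.3, labelled UTX_knock) and 3 from NY8.3 mice with intact UTX (labelled WT). Both groups carry the NY8.3 T cell receptor transgene on the NOD background, so all cells share a receptor for an islet antigen. The labels give no Cre driver, age or number of animals behind a sample, and p-values therefore measure the spread between samples, which may be technical. The question put to these cells was where UTX sits on DNA, with cells that lack UTX set against cells that have it.

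Memory and effector CD8 T cells are shaped by pairs of related or opposing factors. ID3 and ID2 lack a DNA-binding region and hold E proteins off DNA, with ID3 linked to long-lived memory precursors and ID2 to effector cells. EOMES and T-bet (Tbx21) are related T-box activators, ZEB1 and ZEB2 are related zinc finger repressors with opposite roles in memory and effector cells, and BCL6 and BLIMP-1 (Prdm1) repress each other. MYB sustains stem-like cells, and BHLHE40 is a repressor induced by T cell receptor signals that supports effector cytokines and mitochondrial function.

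Of the fate factors other than Zeb1, whose start was not located, Id3 alone had a listed site over its start of transcription. That site spans 401 bp at chr4:136143578-136143978 (mm10) and holds 294 of the 300 bases of the RefSeq promoter window of Id3, which runs from 250 bases before the start to 50 after it. The 244 bases of the Id3 site that lie before the start are printed first below. The 250 bases before the start of Id2, which had no listed site, are printed second because Id2 is the effector-side partner of Id3. Both are RefSeq sequences of GRCm38.p6, written 5′ to 3′ along the gene, with CG dinucleotides in capitals.
Id3, chr4:136143578-136143821, plus strand: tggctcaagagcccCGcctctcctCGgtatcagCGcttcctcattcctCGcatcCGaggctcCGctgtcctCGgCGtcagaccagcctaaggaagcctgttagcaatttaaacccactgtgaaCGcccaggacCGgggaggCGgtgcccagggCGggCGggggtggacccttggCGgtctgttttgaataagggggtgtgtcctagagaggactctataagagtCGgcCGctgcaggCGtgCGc
Id2, chr12:25096093-25096342, minus strand: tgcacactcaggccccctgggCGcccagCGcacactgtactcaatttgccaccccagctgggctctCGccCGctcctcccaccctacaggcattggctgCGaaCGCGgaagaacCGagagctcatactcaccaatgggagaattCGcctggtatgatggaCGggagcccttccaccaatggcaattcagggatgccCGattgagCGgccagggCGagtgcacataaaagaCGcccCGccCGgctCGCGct
The printed stretches were alike in base composition: each holds 18 CG dinucleotides, and the GC content is 62.7% for Id3 and 62.8% for Id2. Among all 32851 promoter windows, 12.8% were overlapped by a site lower in UTX-deficient cells. Those windows had a median of 25 CG dinucleotides, against 6 in the windows with no listed site. The windows of Id3 and Id2, which are 300 bases and so longer than the printed stretches, hold 19 and 21.

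The table gives group values, from which whole reads per library were recovered. The libraries are ranked by depth within a group, because the recovered values name no replicate. Depth, scaled so that the 6 libraries average 1, was 1.93, 1.07 and 0.00577 in UTX-deficient cells and 1.28, 0.916 and 0.792 in WT cells. The shallowest UTX-deficient library was 335 times shallower than the first and held no read in any site lower in UTX-deficient cells. The differences refitted here from recovered reads at the sites of Id3 and Zeb1 are therefore given with and without it. The authors' folds, FDRs and calls include that library, and no version without it was at hand. Of the sites the authors tested, 81% were called lower in UTX-deficient cells at an FDR under 0.05 (6718 of 8293), and 21 were called higher. Marker genes of cell types were also counted. Of 9 CD8 T cell marker genes, 8 had a site lower in UTX-deficient cells, against 22.1% of all protein-coding genes. The counts were 0 of 8 B cell, 1 of 8 myeloid and dendritic, 2 of 6 CD4 and regulatory T cell and 1 of 5 natural killer cell marker genes. Cd4 itself had a site, with 0, 2 and 0 reads in the UTX-deficient libraries and 97, 85 and 48 in the WT libraries. These counts therefore do not tell CD8 from CD4 T cells. Of the CD8 T cell marker genes, 1 (Lck) also had a site higher in UTX-deficient cells, which was not called at an FDR of 0.01. In the shallowest UTX-deficient library 1 read is worth 173.2 normalized reads, and the part of that library in the higher sites was not tested. Bulk CUT&Tag cannot tell fewer bound cells from less binding per cell.

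The UTX signal at the start of Id3 was low in UTX-deficient cells. The site held 0, 8 and 0 reads in the UTX-deficient libraries and 31, 34 and 32 reads in the WT libraries. The groups did not overlap, but the listed sites had been chosen for a difference between the groups. The share of all listed sites without overlap was not computed. At the Id3 start the UTX-deficient reads came from the second library alone. The level of the site was 2.49 ± 4.31 normalized reads in UTX-deficient cells and 33.9 ± 8.54 in WT cells (SD, n = 3 each). Without the near-empty library the UTX-deficient level was 3.73 ± 5.27 (SD, n = 2). The authors' deposited table gives a log2 fold of -2.33, UTX-deficient over WT, with an FDR of 0.0455. This FDR was close to the threshold of 0.05, and 99.0% of the sites lower in UTX-deficient cells had a smaller one. By limma on the recovered reads, which was fitted over all sites on log2(normalized reads + 1), the log2 difference was -4.07 (SE 0.73, adjusted p = 4.52e-08). Without the near-empty library it was -3.55 (SE 0.68, limma adjusted p = 8.04e-05). The listed sites had been chosen by the authors for a difference between these libraries, and limma called 99.8% of them lower (99.5%, 99.7% or 99.8% under every alternative setting).

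The other Id3 site lay outside the gene, 2314 bp past its 3′ end, at chr4:136147706-136148106. It held 0, 2 and 0 reads in the UTX-deficient libraries and 32, 20 and 18 reads in the WT libraries. Its normalized level was 0.621 ± 1.08 in UTX-deficient cells and 23.2 ± 1.65 in WT cells (SD, n = 3 each). The UTX-deficient level was 0.932 ± 1.32 without the near-empty library (SD, n = 2). Here the authors' deposited table has a log2 fold of -3.54 with an FDR of 0.00022. Limma gave a log2 difference of -4.09 (SE 0.53, adjusted p = 5.63e-14), and -3.84 (SE 0.46, adjusted p = 9.37e-07) without the near-empty library. In the WT libraries the level at the Id3 start exceeded the level at this downstream site by 0.52 ± 0.49 on the log2 scale (SD, n = 3). The log2 differences per library were -0.05, 0.77 and 0.83, so the deepest WT library did not share the direction.

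Zeb1, on the memory side of the ZEB pair, had the strongest of the 3 sites. It lies inside the gene, at chr18:5593735-5594135, with its middle 2608 bp from the nearer end of Zeb1. The end of the noncoding gene Gm10125, also listed as Zeb1os, lay nearer, at 1498 bp. No promoter window was at hand for Zeb1, so whether its site covers a start of transcription was not checked. The site held 10, 14 and 0 reads in the UTX-deficient libraries and 61, 78 and 51 reads in the WT libraries. Both deeper UTX-deficient libraries kept some signal. The normalized level was 6.07 ± 6.57 in UTX-deficient cells and 65.7 ± 18.8 in WT cells (SD, n = 3 each). Leaving out the near-empty library, the UTX-deficient level was 9.11 ± 5.57 (SD, n = 2). For Zeb1 the authors' deposited table shows a log2 fold of -2.79 at an FDR of 4.21e-08. Limma gave a log2 difference of -3.88 (SE 1.08, adjusted p = 0.000348), and -2.80 (SE 0.63, adjusted p = 0.000399) without the near-empty library. At the same site length of 401 bp, the Zeb1 site exceeded the Id3 start site in every WT library, by 0.95 ± 0.26 on the log2 scale (SD, n = 3).

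**Figure D1:**
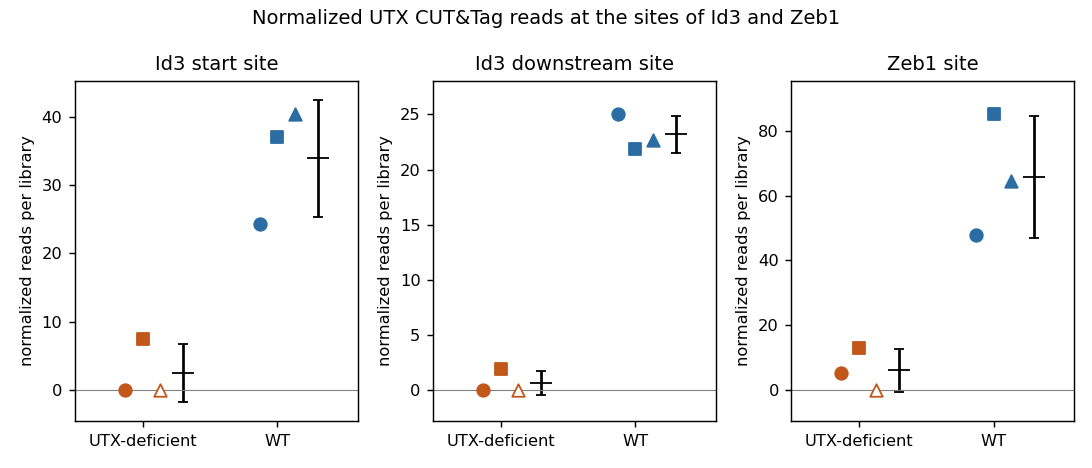
Normalized reads per library (vertical axis) at the start site of Id3, the downstream site of Id3 and the site of Zeb1, with UTX-deficient libraries on the left and WT libraries on the right of each panel; circles, squares and triangles are the libraries in order of depth, the open triangle is the near-empty library, and black lines give the mean and SD of 3 libraries. The WT libraries lie above every UTX-deficient library at each site, but the sites had been chosen by the authors for a difference between the groups. The share of all listed sites without overlap was not computed. The Zeb1 site reaches the highest WT mean, 65.7.

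In WT level the 3 sites were spread over the range of the listed sites. The WT mean of the Zeb1 site was above that of 86.7% of the sites lower in UTX-deficient cells, that of the Id3 start site was above 56.8%, and that of the Id3 downstream site was above 29.3%. The signal that remained in the 2 deeper UTX-deficient libraries also differed. It was 13.9% of the WT level at Zeb1, 11% at the Id3 start and 4.02% at the Id3 downstream site, against a median of 5.75% over all 6715 sites with recovered reads. The libraries differed in this share. At Zeb1 it was 7.86% in the deepest UTX-deficient library and 19.9% in the second, and 91.2% and 94.5% of those sites kept a smaller share in the same library. At the Id3 start it was 0% in the deepest library and 22% in the second, and at the Id3 downstream site it was 0% and 8.04%. Over all those sites the median was 2.71% in the deepest library and 8.56% in the second. The shares at Id3 rest on 8 reads at the start and 2 at the downstream site, all in 1 library, so neither Id3 site can be ranked by them.

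**Figure D2:**
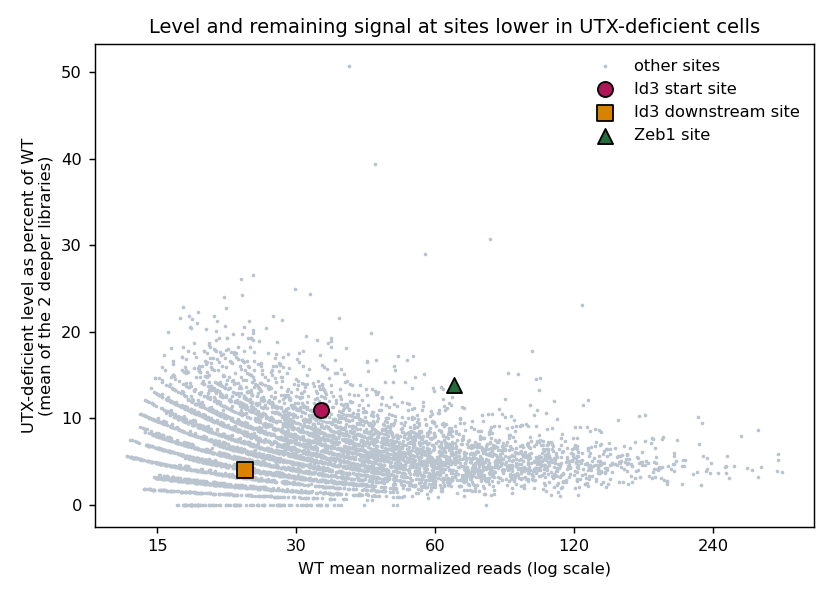
Each point is a site lower in UTX-deficient cells; the horizontal axis is the WT mean in normalized reads on a log scale, and the vertical axis is the mean of the 2 deeper UTX-deficient libraries as a percent of the WT mean. The Zeb1 site (13.9%) lies in the upper part of the cloud, whose median is 5.75%. The Id3 start site is drawn at 11% and the Id3 downstream site at 4.02%. Both Id3 values rest on reads of the second UTX-deficient library alone, so neither Id3 site can be ranked by them.

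Across the 4 pairs of regulators, a site was listed for the memory-side gene and not for the effector-side gene in the Id3 and Id2 pair and in the Zeb1 and Zeb2 pair. In the Eomes and Tbx21 pair and in the Bcl6 and Prdm1 pair neither gene had a listed site, and Myb and Bhlhe40 had none either. With no pair holding sites at both genes, levels and folds could not be set against each other within a pair. A site was assigned to 2 of the 10 genes (20%, exact 95% interval 2.52 to 55.6), against 22.1% of the 21900 protein-coding genes. The share among the fate factors was thus close to that of all genes. The interval treats the 10 genes as independent draws, although they were chosen with earlier results of these data known. With each site given to the protein-coding gene of nearest end, a rule added after seeing the data, 4 of the 10 genes had a site (40%), against 23.4% of protein-coding genes. The table holds only sites with an FDR under 0.05, and the weakest site lower in UTX-deficient cells had a WT mean of 12.9 normalized reads. A bound region that missed that threshold would not be seen at these genes.

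Id3 and Id2 had unlike surroundings. Within 250 kb of Id3 there were 13 sites lower in UTX-deficient cells, and 3.08% of protein-coding genes had more. After its own sites, those closest to Id3 were 2 sites assigned to E2f2, a cell cycle transcription factor, 34.0 and 36.9 kb past the start of Id3. The nearer E2f2 site held 1, 3 and 0 reads in the UTX-deficient libraries and 25, 21 and 11 in the WT libraries. The farther one held 1, 3 and 0 reads in the UTX-deficient libraries and 39, 32 and 20 in the WT libraries. Around Id2 there was no listed site within 250 kb. The closest one lay 442 kb downstream and was assigned to Klf11, a Kruppel-like repressor, and 81.1% of protein-coding genes had a site nearer than that. It held 1, 2 and 0 reads in the UTX-deficient libraries and 100, 80 and 46 in the WT libraries.

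Eomes and Tbx21 both had sites in the distance that the authors assigned to other genes. Upstream of Eomes, 3 sites lay 76.8, 81.6 and 87.3 kb from its start and were assigned to 4933432G23Rik. The nearest gene end by annotation was that of Platr11, and the nearest end of a protein-coding gene was that of Eomes. At the site closest to Eomes, the UTX-deficient libraries held 9, 7 and 0 reads and the WT libraries 60, 35 and 20. At the middle site, the UTX-deficient libraries held 1, 3 and 0 reads and the WT libraries 38, 27 and 19. At the farthest site, the UTX-deficient libraries held 2, 3 and 0 reads and the WT libraries 47, 41 and 25. The 3 sites had similar WT means, from 27.7 to 37.7 normalized reads, and the authors' deposited table puts their log2 folds between -3.94 and -2.57. Around Tbx21 there were 8 sites within 250 kb, with Kpnb1, Sp6, Sp2 and Cdk5rap3 among the genes they were assigned to. The Kpnb1 site, at the gene of a nuclear import receptor 72.8 kb upstream of the Tbx21 start, was the strongest of them, with 2, 11 and 0 reads in the UTX-deficient libraries and 155, 123 and 89 in the WT libraries. Among protein-coding genes, the nearest end to each of these 8 sites was that of a gene other than Tbx21.

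Zeb2 had 1 site nearby, 56.1 kb past its 3′ end and assigned to Gtdc1, a glycosyltransferase-like gene. It held 3, 2 and 0 reads in the UTX-deficient libraries and 76, 66 and 37 in the WT libraries, and its log2 fold is -4.64 by the authors' deposited table. Its WT mean of 59.4 normalized reads was near the 65.7 of the Zeb1 site, but it lay 190 kb from the Zeb2 start, while the Zeb1 site lay 2.61 kb from an end of Zeb1. For Bcl6, the closest site was 162 kb upstream, with 1, 2 and 0 reads in the UTX-deficient libraries and 27, 27 and 10 in the WT libraries. The authors assigned it to Gm46545, and Bcl6 was the protein-coding gene with the nearest end. Prdm1 had no listed site within 250 kb. Its closest one lay 440 kb downstream and was assigned to Crybg1, with 1, 7 and 0 reads in the UTX-deficient libraries and 57, 39 and 38 in the WT libraries.

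For Myb the closest site lay 172 kb past its 3′ end and was assigned to Ahi1, a ciliary gene, with 0, 2 and 0 reads in the UTX-deficient libraries and 41, 30 and 16 in the WT libraries. For Bhlhe40, 4 sites within 250 kb were assigned to Itpr1, a calcium release channel gene, and Edem1, a gene of protein quality control. The closest of them lay 111 kb away at Itpr1, with 1, 5 and 0 reads in the UTX-deficient libraries and 51, 36 and 18 in the WT libraries. Over the 10 factors, the median gap to the closest site was 93.6 kb, against 58.1 kb for all protein-coding genes that could be placed. No site lay within 100 kb for 5 of the 10 factors, against 41.2% of protein-coding genes. No site lay within 250 kb for 2 of them, Id2 and Prdm1, against 27% of protein-coding genes.

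**Figure D3:**
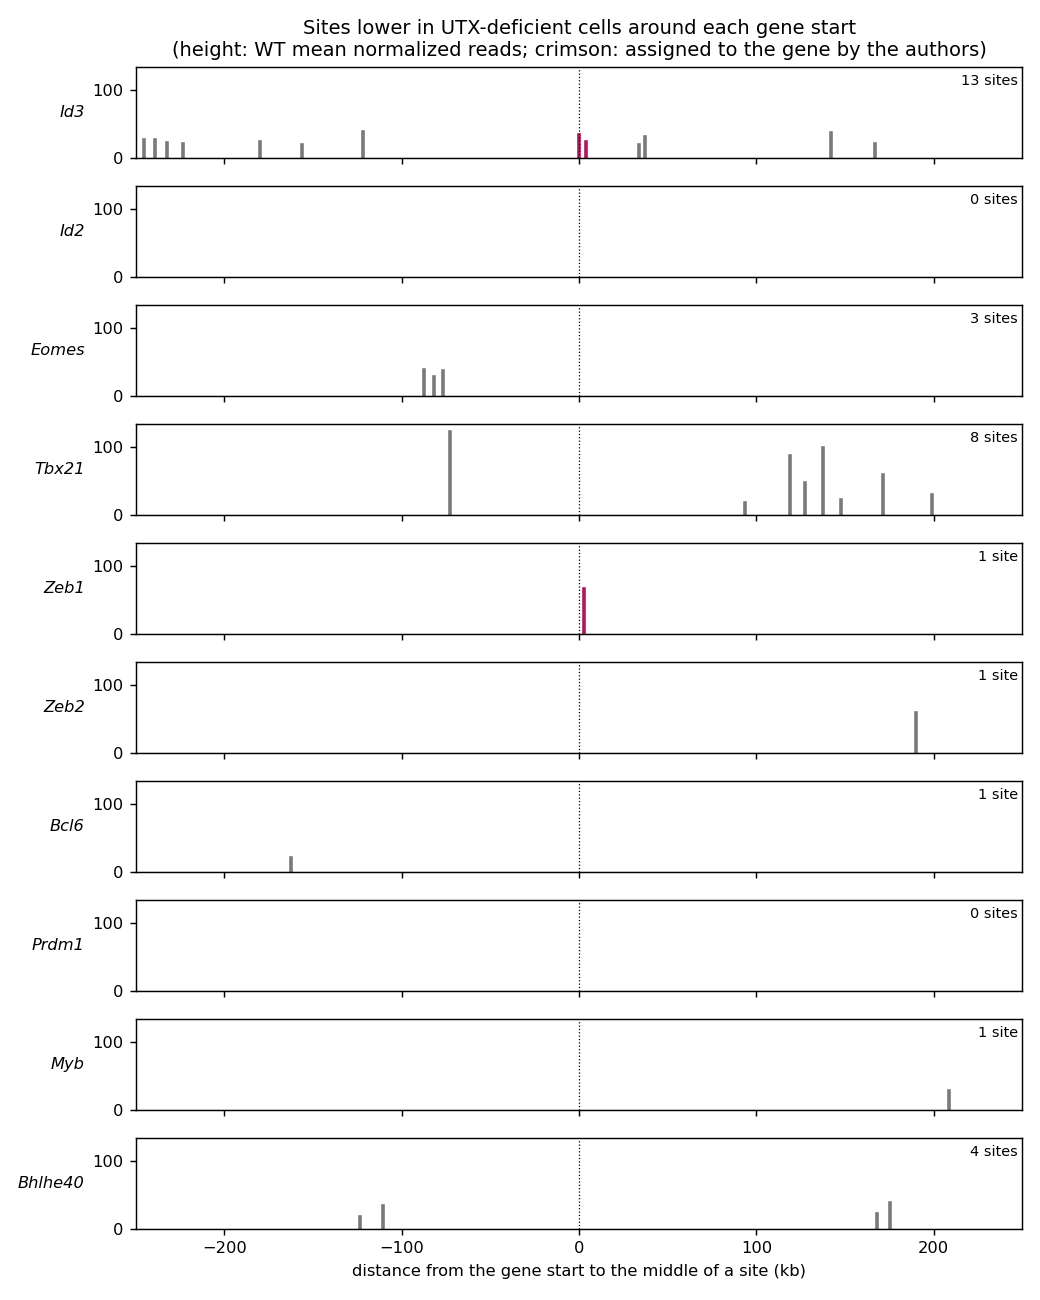
Sites lower in UTX-deficient cells within 250 kb of the start of each of the 10 genes; the horizontal axis is the distance from the gene start in kb, with upstream to the left (for Zeb1 and Bhlhe40, whose strand was not used, from the gene end with the lower coordinate), and the height is the WT mean in normalized reads. Crimson bars, the sites assigned to the gene by the authors, appear at Id3 and Zeb1, the panels of Id2 and Prdm1 are empty, and the panel of Id3 holds 13 sites.

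RefSeq promoter windows were at hand for 8 of the 10 factors, 12 windows in all, and the Id3 window was the only one of them that a listed site overlapped. The windows without a site lay on either side of the Id3 window in CG dinucleotides. Id3 had 19 in its window. Tbx21 and Id2 had 21 each, Prdm1 had 20, Myb had 40 and the first Bcl6 window had 31, while the second Bcl6 window had 14, Eomes had 10 and the 4 Zeb2 windows had from 8 to 19. In GC content the Myb window, at 75%, was above 96.1% of all windows, and the Id3 window, at 60%, was above 70.5%. Letters known as targets of the factors themselves were then looked up on both strands. The E-box CANNTG, which also covers the next pair of motifs, was absent from the windows of Id3, Eomes and Zeb2 and from the second Bcl6 window, and present in 72.3% of all windows. CAGGTG, the E-box that ZEB proteins bind, was found once in the Tbx21 window and once in the Prdm1 window, and in 20.2% of all windows. CACGTG, the E-box that BHLHE40 binds, was found once in the first Bcl6 window and in 7.15% of all windows. TTCCNNGAA, after the BCL6 motif, was found at 2 places in the second Bcl6 window and in 4.81% of all windows. The T-box letters TCACACCT and the BLIMP-1 motif were found in none of the 12 windows, and in 1.28% and 0.0913% of all windows. AACNG, after the MYB motif, was found in all 12 windows and in 80.3% of all windows.

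Genes around the 10 factors were compared as lists, which were chosen with earlier results of these data known and were not tested. The exact intervals given for these lists treat genes as independent draws, which chosen genes are not, so they test nothing. Of 16 partners and paralogues, 7 had a site lower in UTX-deficient cells (43.8%, exact 95% interval 19.8 to 70.1), against 22.1% of protein-coding genes. None of the 16 had a higher one. Tcf3, which encodes the E protein E2A that ID proteins hold off DNA, had a site 87 bp from an end of the gene with 2, 4 and 0 reads in the UTX-deficient libraries and 100, 91 and 45 in the WT libraries. The other E protein genes, Tcf4 and Tcf12, had no listed site, and neither had the ID paralogues Id1 and Id4, the T-box paralogue Tbr1 and the Bhlhe40 paralogue Bhlhe41. Cul3, a scaffold of ubiquitin ligases, had the smallest FDR of this list, with 4, 10 and 0 reads in the UTX-deficient libraries and 177, 126 and 103 in the WT libraries. Bcor, which encodes a corepressor of BCL6, had a site 1582 bp from an end of the gene, for which the authors' deposited table gives a log2 fold of -3.50. The median log2 fold over the 10 sites of this list was -3.44, that of the 3 sites of the fate factors was -2.79, and that of all sites lower in UTX-deficient cells was -3.51, all by the authors' deposited table.

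Of 30 other transcription factors of CD8 T cell fate, 25 had a site lower in UTX-deficient cells (83.3%, exact 95% interval 65.3 to 94.4), against 22.1% of protein-coding genes. The 25 genes held 65 sites, with a median log2 fold, by the authors' deposited table, of -3.47. Nr4a1 and Runx3 had 5 sites each, Nr4a3 had 4 and Klf3 had 2, and the values given for them belong to each gene's site of smallest FDR. Nr4a1, an orphan nuclear receptor induced by T cell receptor signals, held 6, 10 and 0 reads in the UTX-deficient libraries and 207, 157 and 108 in the WT libraries. Runx3, a factor of the CD8 lineage, held 4, 7 and 0 reads in the UTX-deficient libraries and 172, 137 and 86 in the WT libraries. Klf3, a Kruppel-like repressor, and Nr4a3, a relative of Nr4a1, stood at -5.01 and -4.70 on the log2 fold of the authors' deposited table. The median gene length was 20.6 kb for the 10 factors and 49.5 kb for these 30 genes, and the part of gene length in the difference was not tested. Counting only sites less than 1 kb from an end of the gene, 12 of the 30 genes had a site (40%), against 1 of the 10 factors (10%) and 15.3% of protein-coding genes. Within 10 kb the counts were 19 of 30 (63.3%), against 2 of 10 (20%) and 19.3% of protein-coding genes.

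Genes known as targets of the factors had a site at 12 of 16 (75%, exact 95% interval 47.6 to 92.7), with 27 sites, against 22.1% of protein-coding genes. At an FDR of 0.01 the count was 10 of 16 (62.5%), against 19.5% of protein-coding genes. Ifng, the effector cytokine gene that T-bet and EOMES activate, had 1 site, 21659 bp outside the gene, with 3, 4 and 0 reads in the UTX-deficient libraries and 82, 57 and 47 in the WT libraries. At Prf1, the perforin gene, a site 223 bp from an end of the gene had 2, 6 and 0 reads in the UTX-deficient libraries and 63, 44 and 40 in the WT libraries. Ccr7 and S1pr1, which encode receptors for lymph node homing and exit, had 6 sites each, and the authors' deposited table gives log2 folds of -3.11 (Ccr7) and -3.49 (S1pr1) at their sites of smallest FDR. Klrg1, S1pr5 and Cxcr3 were among the genes with no listed site.

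**Figure D4:**
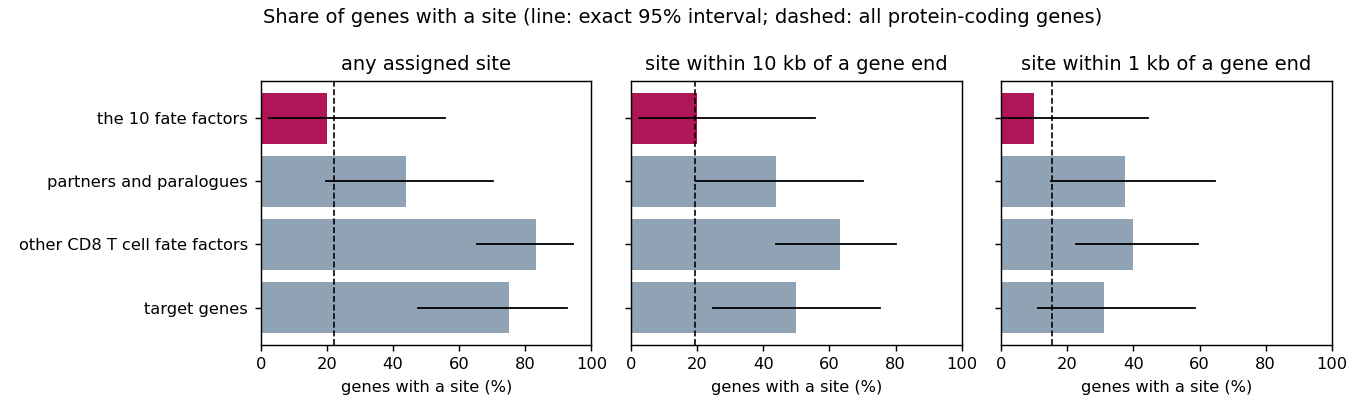
Percent of genes with a site lower in UTX-deficient cells (horizontal axis) in the 10 fate factors, their partners and paralogues, other CD8 T cell fate factors and target genes, for any assigned site, for sites within 10 kb of a gene end and for sites within 1 kb; black lines are exact 95% intervals and dashed lines are all protein-coding genes (22.1%, 19.3% and 15.3%). The 10 factors stand near the dashed line at 20%, 20% and 10%, and the other fate factors stand at 83.3%, 63.3% and 40%. The intervals treat chosen genes as independent draws and are not a test of the lists.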

How the data were processed

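The authors deposited their comparison of both groups as one list of sites. The submitters' processing notes name mm10 as the build and DiffBind, MACS2, Picard, SAMtools, Bowtie2, cutadapt and FastQC as tools. The role and version of each tool and any pooling before peak calling were not given in the sources used here. By their names in the file header, the deposited concentrations are log2 mean normalized reads over all samples and per group, the fold is a log2 value (negative where UTX-deficient cells are lower), and each site has the authors' p-value and FDR. FDR, rank and p-value together imply 8293 tests, of which 1554 are outside the table.

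Calls at an FDR of 0.05 are the authors'. The antilog of a group's concentration is the mean over its 3 libraries of whole reads divided by depth, and it was solved for those reads with exactly 1 solution at 6731 of 6739 sites, with relative depths that sum to 6. Where a group's concentration stood at its floor of 0, as at the Id3 downstream site in UTX-deficient cells, the concentration over all samples less that of the other group was used. The recovery was tested on simulated data. Recovered reads divided by depth were tested with limma 3.58.1 in R 4.3.3 on log2(value + 1) over all 6731 sites, with Benjamini-Hochberg adjustment over all of them. PCR copies were not told apart by molecular identifiers, and intervals on gene shares treat genes as independent.

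Symbols were matched to RefSeq genes of GRCm38.p6, the assembly of mm10, for 6677 sites. Distances to a gene end start at a site's middle, and gaps at its edge. Where the promoter table gives a strand, it sets upstream and downstream. The named genes are all 10 members and up to 4 genes of each other list by smallest FDR; genes without a site, those setting list contents out and those nearest to a member were picked with their values in view. A few genes of the lists and surroundings are counted but not reported by name here. The members and lists were chosen with earlier results of these data known. Alternatives were a stricter FDR, other rules for which site belongs to a gene, other pseudocounts, a filter on low values and leaving out each library.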

Additional observations from a re-analysis of the deposited data

How the results depend on the processing

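At an FDR of 0.01 the Id3 start site, with its log2 fold of -2.33, was no longer called, and both genes kept a site. Counting only sites less than 1 kb from an end of the gene, 1 gene with 1 site was left, since the Zeb1 site lies farther in. By the nearest gene end of the annotation, 1 gene, Id3, had sites, because Gm10125 lay nearer to the Zeb1 site. By the nearest protein-coding gene end, a choice added after seeing the data, 4 genes held 7 sites, with 3 at Eomes and 1 at Bcl6 besides those of Id3 and Zeb1.

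By limma, all 3 sites stayed lower in UTX-deficient cells and past the threshold in each setting that could be run. So did 99.5%, 99.7% or 99.8% of all fitted sites, depending on the setting. The listed sites had been chosen by the authors for a difference between these libraries. The log2 difference ranged from -5.09 to -2.50 at the Id3 start (adjusted p up to 0.000464), from -4.82 to -2.34 at the Id3 downstream site (up to 9.37e-07) and from -4.71 to -2.80 at Zeb1 (up to 0.0144) over pseudocounts, the filter and each library left out. Each setting except the 1 that left out the near-empty library used the 0 reads of that library. The lowest values at the Id3 start (-5.09) and at Zeb1 (-4.71) came from leaving out the second UTX-deficient library. That setting kept only the deepest and the near-empty UTX-deficient library. The Id3 downstream site lay below the filter on low values and has no value there. No paired analysis was possible because the group columns and the recovered libraries carry no replicate number. Alternatives planned within pairs of regulators were not run, since no pair has sites at both genes. Depth limits the UTX-deficient side most: the near-empty library, where 1 read is worth 173.2 normalized reads, gives no measurement of these sites.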

Other observations

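At the Id3 start site the deepest UTX-deficient library held 0 reads and the second held 8. Of the 6715 sites lower in UTX-deficient cells with recovered reads, 1002 had 0 reads in the deepest UTX-deficient library, and 30 of these had at least 8 in the second. This count was made after the reads of the Id3 start site had been seen.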
